A study of Mus musculus with 6 samples.

Results

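The genes described here are the 3 creatine kinase genes of muscle, mitochondria and brain (Ckm, Ckmt2 and Ckb), the creatine transporter Slc6a8 and the myoglobin gene Mb. They were taken by symbol, are 5 of the 23404 genes in the deposited table, and all 5 passed the filter on low values that 12907 genes passed. The RNA came from cardiomyocytes of C57BL/6J mice that were sorted on FITC fluorescence and on forward scatter (FSC), a light signal that grows with particle size. FITChigh stands for the sub-population with high FITC and dim FSC, and FITCdim for the one with dim FITC and high FSC. Each held 3 libraries that the series text calls biological replicates. The labels name no treatment, age, sex or heart chamber, and the strain is the same in both groups.

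Creatine kinases move a phosphate group between ATP and creatine. The mitochondrial enzyme, encoded by Ckmt2 in heart and skeletal muscle, sits between the mitochondrial membranes and makes phosphocreatine from newly made ATP. The muscle enzyme, encoded by Ckm, lies partly on the M-band of the sarcomere and near calcium pumps, where it turns phosphocreatine back into ATP. Ckb encodes the brain enzyme, which is prominent in the embryonic heart and in many cells other than muscle. Creatine itself is made mainly outside the heart and enters myocytes through the transporter Slc6a8. Myoglobin is the oxygen-binding heme protein of heart and oxidative skeletal muscle.

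In mouse build mm10 with GENCODE annotation, Ckm lies on chromosome 7 at 19404776 to 19422841 (plus strand), Ckmt2 on chromosome 13 at 91853387 to 91876885 (minus strand) and Ckb on chromosome 12 at 111669361 to 111672338 (minus strand). Slc6a8 lies on chromosome X at 73673150 to 73682502 (plus strand) and Mb on chromosome 15 at 77015487 to 77050670 (minus strand). The coding sequences of Ckm and Ckb were 76.5% identical, with a longest shared run of 20 bases, and those of Ckmt2 and its ubiquitous mitochondrial paralog Ckmt1 were 71.6% identical, with a longest shared run of 39 bases. No pair of the 4 kinases shared a stretch of 75 coding bases, the length of a read. Antisense or other genes overlap Ckm, Ckmt2 and Mb. Of these, A930016O22Rik at Ckm and Apol6 at Mb had rows in the table and reached at most 5.78 and 2.91 adjusted counts.

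The 250 bases before the RefSeq start sites of the 3 kinase genes (GRCm38.p6) are shown because the kinases differed in level. Only Ckmt2 among them passed the test between the groups described below. The ratios of Ckmt2 and Ckb to Ckm did not pass, and a link of these sequences to the levels was not tested. Each is written 5′ to 3′ on the strand of the gene, and the capitals mark the motifs that were searched for on both strands. These were the E-box CANNTG, the MCAT element CATTCC, the TATA box TATAAA, the GC box GGGCGG, the CCAAT box CCAAT, the MEF2 site and the CArG box.
Ckm, chr7:19410844-19411093, plus strand: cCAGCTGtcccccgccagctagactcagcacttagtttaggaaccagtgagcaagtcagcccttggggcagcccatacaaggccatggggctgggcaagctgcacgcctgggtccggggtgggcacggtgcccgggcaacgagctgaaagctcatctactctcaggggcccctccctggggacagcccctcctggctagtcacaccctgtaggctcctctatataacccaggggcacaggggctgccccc
Ckmt2, chr13:91876886-91877135, minus strand: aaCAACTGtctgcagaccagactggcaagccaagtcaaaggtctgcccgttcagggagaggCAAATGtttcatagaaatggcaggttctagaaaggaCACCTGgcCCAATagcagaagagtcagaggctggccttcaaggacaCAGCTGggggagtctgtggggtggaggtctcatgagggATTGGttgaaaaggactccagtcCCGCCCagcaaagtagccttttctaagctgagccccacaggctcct
Ckb, chr12:111672339-111672588, minus strand: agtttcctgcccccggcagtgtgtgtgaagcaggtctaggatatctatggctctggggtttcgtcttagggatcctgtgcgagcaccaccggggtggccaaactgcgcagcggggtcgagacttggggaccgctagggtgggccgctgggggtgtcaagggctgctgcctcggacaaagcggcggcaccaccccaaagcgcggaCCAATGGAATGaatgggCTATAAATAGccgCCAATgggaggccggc
The Ckm window held 1 E-box, 249 to 244 bases before the start. The Ckmt2 window held 4 E-boxes, 2 CCAAT boxes and 1 GC box. The Ckb window held no E-box but a MEF2 site 29 to 20 bases before the start, which contains its TATA box, together with 2 CCAAT boxes and 1 MCAT element. Of 32851 RefSeq promoter windows of 250 bases, 66.2% held an E-box, 33.8% a CCAAT box, 32.7% a GC box, 12.6% an MCAT element, 12.4% a TATA box, 2.92% a MEF2 site and 1.47% a CArG box. A match describes the letters and not a bound site.

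The values are adjusted read counts, which the authors brought to a common library size but did not divide by gene length. The reads recovered behind them numbered 1589825 to 2931045 per FITChigh library and 1705626 to 3345994 per FITCdim library. Their column totals were higher in FITChigh (2333473 to 2443707) than in FITCdim (2030583 to 2112872). Differences were tested by limma on log2(value + 1) across the 12907 genes, as FITChigh minus FITCdim, and a gene was called at a Benjamini-Hochberg adjusted p under 0.05. This called 324 genes higher (2.51% of those tested) and 1748 lower (13.5%), so that 15.6% of calls were higher, against 1.84% when each library was scaled to a common total. All 3 FITChigh values lay above all 3 FITCdim values in 11.4% of the tested genes, and below them in 20.2%.

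Of the 5 genes, Ckmt2 was called higher in FITChigh and none was called lower. Ckm and Mb were also higher in every FITChigh library than in every FITCdim library without passing the test, and the levels of Ckb and Slc6a8 overlapped between the groups. The summed level of 12 cardiomyocyte markers moved the same way, at 346900 to 370800 adjusted counts in FITChigh and 216100 to 270900 in FITCdim, and 1 of the 12, Tnni3, was called higher. Myh6 was the largest part of this sum, at 159500 ± 13500 against 96710 ± 23900 (SD, n = 3 each). The log2 fold changes of the 12 ran from 0.118 to 0.747, the latter for Myh6, with a median of 0.473. Markers of most other cell types were lower in FITChigh. All 12 endothelial markers were called lower, with sums of 722.6 to 1026 against 5159 to 5962, as were all 7 fibroblast markers that passed the filter in both groups, with at least 1 adjusted count in every library (list sums 105.8 to 136.7 against 575.6 to 1035) and all 7 such leukocyte markers (86.1 to 120.6 against 426.8 to 978.7). Of the 5 tested epicardial markers 4 passed only through FITCdim, and the list's sum was 5.68 to 8.64 against 70.8 to 166.6. All 6 tested atrial markers were called lower too (202.1 to 447.6 against 1173 to 2494), as were 6 of the 8 smooth muscle and pericyte markers that passed in both groups (1385 to 1836 against 1890 to 2483). None of 4 tested glial and neuronal markers was called (30.5 to 45.8 against 34.5 to 47.6), with Th and Snap25 at 0 in every library. The hemoglobin genes Hba-a1 and Hba-a2 were at 0 in every library, and Hbb-bs and Hbb-bt had no rows. No erythroid marker passed the filter, and the list's sum was 0 to 1.34 against 0.142 to 5.35. The part of these cell types in the results was not tested, and in bulk RNA fewer cells of a type and less RNA per cell cannot be told apart.

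**Figure D1:**
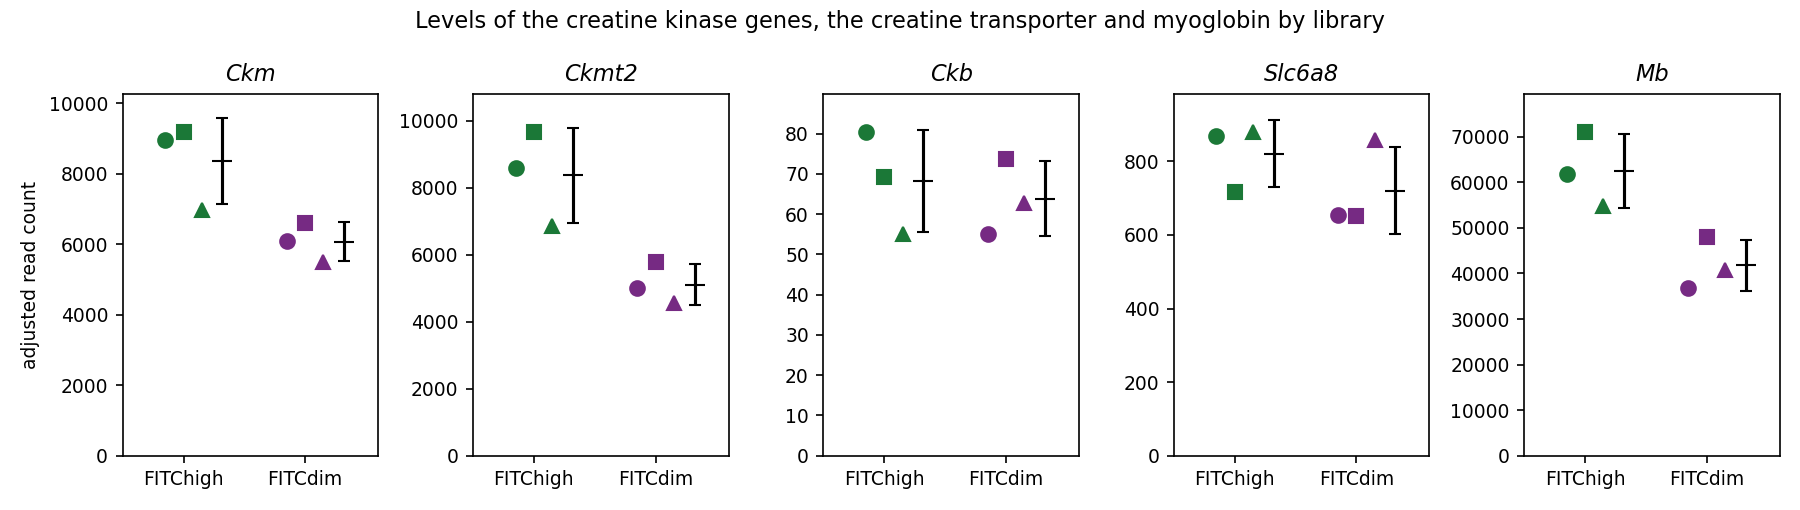
Adjusted read counts of the 5 genes in each library, on linear axes from 0. Circles, squares and triangles are replicates 1, 2 and 3, green is FITChigh, purple is FITCdim, and black bars give the mean and SD (n = 3); the groups are separate for Ckm, Ckmt2 and Mb and overlap for Ckb and Slc6a8.

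Ckmt2, the mitochondrial enzyme of striated muscle, had 8585, 9654 and 6861 adjusted counts in FITChigh replicates 1, 2 and 3, and 4996, 5770 and 4557 in the FITCdim replicates. The lowest FITChigh library, replicate 3, stood above the highest FITCdim library, replicate 2. The mean was 8367 ± 1409 against 5108 ± 615 (SD, n = 3 each). This is a log2 fold change of 0.70 (SE 0.17), or 1.63-fold with a 95% interval of 1.27 to 2.1, and limma's adjusted p was 0.0089. The call was lost without FITCdim replicate 1 (adjusted p = 0.054 by limma), without the mean-variance trend (0.0687), with quantile normalization (0.255) and with scaling to the cardiomyocyte markers (0.514). Quantile normalization sets each value by its rank in the library, and Ckmt2 ranked 20 to 34 among all genes and Ckm 22 to 28. It can remove a rise that the highest genes share, so it cannot decide whether Ckmt2, Ckm or Mb rose with them.

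Ckm, the sarcomeric and cytosolic muscle enzyme, had 8949, 9177 and 6964 adjusted counts in the FITChigh replicates and 6097, 6614 and 5499 in the FITCdim replicates. Again FITChigh replicate 3 was the lowest of its group and came close to FITCdim replicate 2, without overlap. The log2 fold change was 0.46 (SE 0.17), or 1.37-fold with an interval of 1.07 to 1.75, and it did not pass the test (adjusted p = 0.078 by limma). It passed without FITChigh replicate 3 (0.58, adjusted p = 0.0424 by limma) and with robust empirical Bayes (0.0289). It also passed with voom on recovered reads (0.0225) and with a block on the replicate (0.00155). Its sign turned with quantile normalization (-0.02) and with scaling to the cardiomyocyte markers (-0.10).

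Mb ranked 2 or 3 among all genes by adjusted count in every library and made up 2.35% to 2.91% of the summed values in FITChigh and 1.81% to 2.27% in FITCdim. Its level was 61913, 70995 and 54779 adjusted counts in the FITChigh replicates and 36745, 47932 and 40659 in the FITCdim replicates. Replicate 2 was the highest library of both groups, and the groups did not overlap. The log2 fold change was 0.58 (SE 0.25), or 1.5-fold with an interval of 1.04 to 2.16, and did not pass the test (adjusted p = 0.13 by limma). It passed with a stricter filter (adjusted p = 0.0497 by limma), with robust empirical Bayes (0.00476), with voom on recovered reads (0.00281) and with a block on the replicate (0.00294). It did not pass with a common total (0.281), with quantile normalization (0.653) or with scaling to the cardiomyocyte markers (0.929). Nor did it pass in any fit that left out 1 library (0.141 to 0.32).

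Ckb, the brain enzyme, had 80.3, 69.1 and 55.2 adjusted counts in the FITChigh replicates, from 84, 45 and 70 reads, and 55.0, 73.7 and 62.8 in the FITCdim replicates, from 92, 60 and 55 reads. The lowest and the second highest of the 6 libraries were FITCdim libraries, so that neither group stood apart. The log2 fold change was 0.09 (SE 0.20), with an interval of 0.786-fold to 1.44-fold and an adjusted p of 0.83 by limma.

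Slc6a8, which carries creatine into the cell, had 868, 716 and 879 adjusted counts in the FITChigh replicates and 654, 651 and 857 in the FITCdim replicates. FITCdim replicate 3 lay above FITChigh replicate 2 and within the FITChigh range, so the groups overlapped, while 8 of the 9 pairs of libraries were higher in FITChigh. The log2 fold change was 0.19 (SE 0.14), with an interval of 0.924-fold to 1.41-fold and an adjusted p of 0.43 by limma. Unlike the kinases of muscle and Mb, its lowest FITChigh library was replicate 2.

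The directions for Ckm, Ckb and Slc6a8 depended on the scaling. With every library at a common total the median of all genes moved from -0.01 to -0.20 on the log2 scale, and the log2 fold changes of Ckb and Slc6a8 became -0.11 and -0.01. As CPM of the recovered reads, which sets all libraries to the same total, Ckb was 28.4 ± 4.57 (FITChigh) against 30.8 ± 3.96 (FITCdim), and Slc6a8 was 342 ± 44.1 against 346 ± 52.7 (SD, n = 3 each). Ckmt2, at 3476 ± 508 against 2451 ± 289 CPM, and Mb, at 26010 ± 2820 against 20020 ± 2400, kept groups that did not overlap. For Ckm, at 3475 ± 426 against 2914 ± 277 CPM, the groups overlapped, since FITChigh replicate 3 (2985) lay below FITCdim replicates 1 (3004) and 2 (3134), and with a common total its adjusted p was 0.33 by limma. Scaling to the cardiomyocyte markers moved the median of all genes to -0.54, with Ckmt2 at 0.15, Mb at 0.03, Ckm at -0.10, Slc6a8 at -0.36 and Ckb at -0.46. Myh6 was the largest part of the marker sum behind this scaling.

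**Figure D2:**
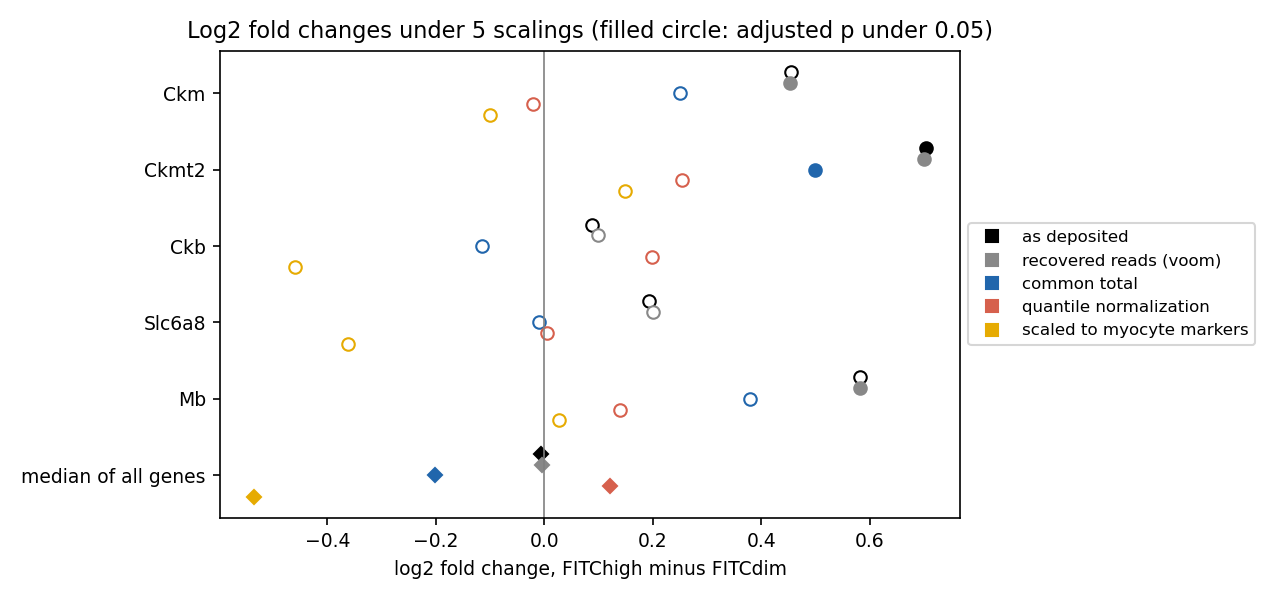
Log2 fold change (FITChigh minus FITCdim) of each gene under 5 ways of scaling the libraries, with the median of all tested genes as diamonds. Filled circles have an adjusted p under 0.05; Ckmt2 and Mb stay right of 0 under all 5, and Ckm, Ckb and Slc6a8 lie on both sides.

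A ratio of 2 genes within a library does not change when all values of the library are multiplied by a factor, though it can change with quantile normalization. Ckb amounted to 0.897%, 0.753% and 0.792% of Ckm in the FITChigh replicates and to 0.903%, 1.115% and 1.141% in the FITCdim replicates. Every FITChigh library was below every FITCdim library, although replicate 1 of the groups was nearly equal. Over all tested genes 36.2% had ratios to Ckm that were lower in this way, and 0.697% had higher ones. The mean was 0.814% ± 0.075 against 1.05% ± 0.13 (SD, n = 3 each), a log2 difference of -0.37 or 0.775-fold. The exact two-sided permutation test over 20 assignments gave p = 0.1, the smallest it can give, and 0.2 after Benjamini-Hochberg adjustment over the 4 ratios to Ckm. After quantile normalization the log2 difference turned to 0.22 (exact permutation p = 0.5). That setting can remove a rise of Ckm that other high genes share, so it cannot decide the direction of this ratio. Counting error alone gave each ratio a wide 95% interval, from 0.714% to 1.11% in FITChigh replicate 1 and from 0.858% to 1.49% in FITCdim replicate 3, and the intervals of the groups overlapped.

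Ckmt2 amounted to 95.9%, 105.2% and 98.5% of Ckm in the FITChigh replicates and to 82.0%, 87.2% and 82.9% in the FITCdim replicates. These groups were also separate, at 99.9% ± 4.79 against 84.0% ± 2.83 (SD, n = 3 each), a 1.19-fold difference with p = 0.1 and 0.2 adjusted by the same exact test. Mb amounted to 751% ± 51.4 and 689% ± 75.1 of Ckm, and Slc6a8 to 10.04% ± 2.43 and 12.1% ± 3.09, and in both cases the groups overlapped (exact permutation p = 0.4, and 0.4 adjusted). When every gene was set against Ckm in limma, 1 of 12906 genes was called higher (0.00775%) and 3078 lower (23.8%). None of the other 4 genes was called, with log2 differences of 0.25 for Ckmt2 (adjusted p = 0.341), -0.37 for Ckb (0.286), -0.26 for Slc6a8 (0.382) and 0.13 for Mb (0.708). Set against the summed cardiomyocyte markers, Ckb (-0.47) and Slc6a8 (-0.36) were lower in every FITChigh library than in every FITCdim library (exact permutation p = 0.1 each, 0.25 adjusted over 5 genes), as were 50% of all tested genes. The median gene lay at -0.54 on that scale, below both. Ckm, Ckmt2 and Mb overlapped.

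**Figure D3:**
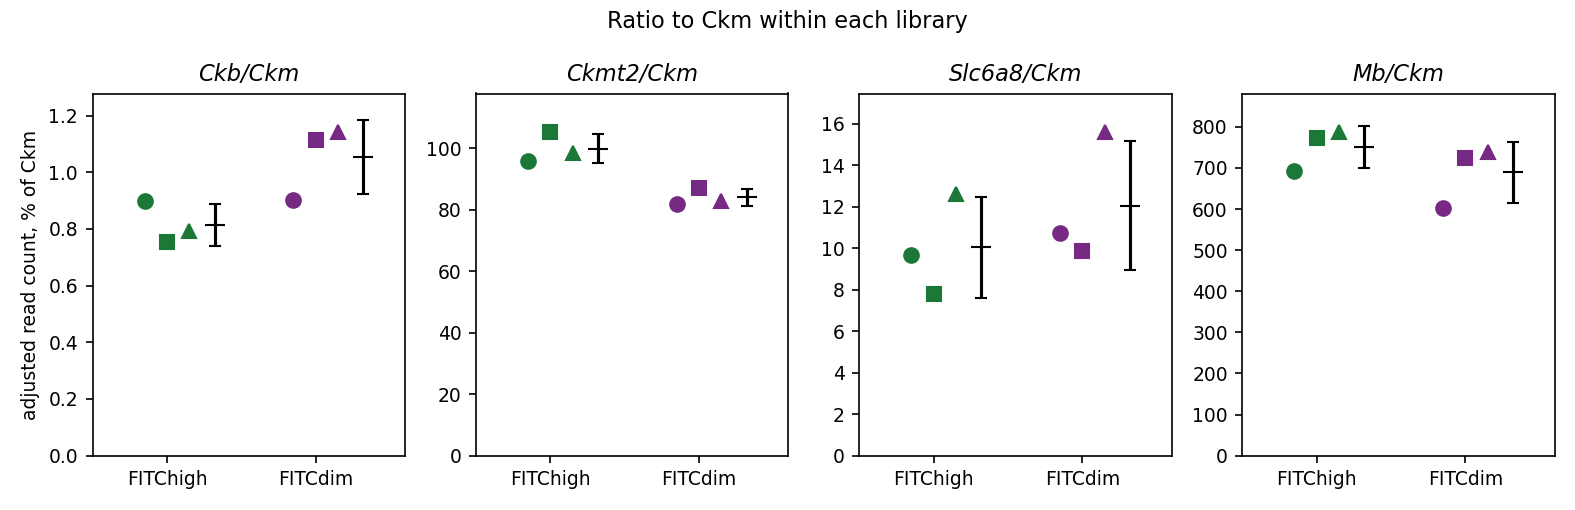
Level of Ckb, Ckmt2, Slc6a8 and Mb as a percentage of the Ckm level in the same library, on linear axes from 0, with symbols and bars as in the plot of levels by library. Ckb/Ckm and Ckmt2/Ckm separate the groups, in opposite directions, and the other ratios overlap.

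Levels of different genes were compared per kilobase of coding sequence. In this order Mb was highest, at 135400 adjusted counts per kilobase in FITChigh and 90430 in FITCdim, followed by Ckm (7317 and 5311), Ckmt2 (6656 and 4063), Slc6a8 (428 and 376) and Ckb (59.7 and 55.9). Ckm and Ckmt2 are neighbours whose order depended on the length used. Per kilobase of a chosen annotated transcript, 2742 bases for Ckm and 1486 for Ckmt2, Ckmt2 stood above Ckm (5630 against 3050 in FITChigh). The transcript chosen was the longest of those with the longest coding sequence, and a shorter Ckm transcript would narrow this gap. By coding length Ckm made up 52.2% ± 1.2 of creatine kinase transcripts in FITChigh and 56.4% ± 0.83 in FITCdim, Ckmt2 47.4% ± 1.2 and 43.0% ± 0.81, and Ckb 0.425% ± 0.048 and 0.593% ± 0.069 (SD, n = 3 each). By the chosen transcript length Ckm made up 35% in FITChigh and 38.9% in FITCdim, and Ckmt2 64.5% and 60.3%.

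The patterns most like each gene over the 6 libraries were ranked by the root mean square difference of centred log2 values, as a description of shared levels. Ckm was nearest to Mrpl55 (0.0423), Timm23 and Atpif1, and Ckmt2 to Itgb1bp2 (0.0536), Atp5d and Ndufa1. Timm23 encodes a subunit of the inner-membrane import channel, Atpif1 the inhibitor of ATP synthase, Atp5d a subunit of ATP synthase and Ndufa1 a subunit of respiratory complex I. Mb was nearest to Fabp3 (0.0467), the fatty acid binding protein of heart, then Cited2 and Hcfc1r1. Slc6a8 was nearest to Fgf1 (0.0368), Mical3 and Fam212b, and Ckb to Vps29 (0.0563), Irf2bp1 and Impdh2. Among the 5 genes themselves Mb took place 31 of 6304 candidates for Ckmt2, and for Ckm it took place 259, ahead of Ckmt2 at place 314.

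Gatm, which makes the creatine precursor guanidinoacetate, was at 0 in all 3 FITChigh libraries and at 14.3, 4.13 and 6.97 adjusted counts in the FITCdim replicates. With 0 against 31 reads, the pooled FITCdim level was 10.6-fold above a floor of 3 reads over the FITChigh group. Neither counting error nor the spread between the FITCdim libraries enters this value. Of the 31 reads 22 came from FITCdim replicate 1, without which it was 5.96-fold. Gatm passed the filter only through FITCdim, so no test is given for it. Slc6a6, the taurine transporter of the same family as Slc6a8, had 310, 187 and 289 adjusted counts in the FITChigh replicates and 521, 414 and 479 in the FITCdim replicates (log2 fold change -0.87, adjusted p = 0.0023 by limma). Endothelial, fibroblast and leukocyte markers were lower in the same FITChigh libraries, and their part in these differences was not tested. Gamt, which completes creatine synthesis, was not called (-0.52), Ckmt1 had 0 against 6 reads and was not tested, and Slc6a7 was at 0 throughout. Of the 5 listed genes, Slc6a6 and Gamt passed the filter in both groups, and 1 of them was called lower, beside 13.5% of all genes tested.

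Among 10 tested adenylate and nucleoside diphosphate kinases and AMP deaminases, which exchange or remove adenine nucleotides, 0 rose (2.51% of all genes tested), 1 fell (13.5% of all) and the median was 0.08. Ak1, the cytosolic adenylate kinase and the highest of them, had 1924 ± 47.6 adjusted counts against 1581 ± 198 (log2 fold change 0.29, adjusted p = 0.172 by limma). The AMP deaminase gene Ampd2 fell by 1.53 on the log2 scale, from 17.5 ± 1.88 in FITCdim to 5.55 ± 1.75 in FITChigh (SD, n = 3 each; adjusted p = 0.0088 by limma). Of the 6 nucleotide and phosphate carriers and porins that passed the filter in both groups, 1 rose (2.51% of all genes tested) and none fell (13.5% of all), with a median of 0.33. ATP leaves the mitochondria through several of them. The porin gene Vdac2 rose (0.42, adjusted p = 0.0411 by limma), and the carrier Slc25a4, the highest of them, was 16480 ± 4040 against 12350 ± 1990 without passing (SD, n = 3 each).

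Of 10 tested genes of the M-band and of the ATPases that muscle creatine kinase serves, 3 rose and none fell, with a median of 0.29. All 3 encode proteins of the M-band or linked to it. They were Obsl1 (log2 fold change 0.65, SE 0.16), Myom1 (0.61, SE 0.15) and Myom2 (0.49, SE 0.15), with adjusted p-values by limma of 0.0103, 0.0117 and 0.0369. Myh6, the cardiac myosin heavy chain and the highest of the list, had 159500 ± 13500 against 96710 ± 23900 adjusted counts (SD, n = 3 each) and was not called (0.75, adjusted p = 0.136 by limma). The calcium pump gene Atp2a2 was not called either (0.22). The summed cardiomyocyte markers were higher in the same FITChigh libraries, and their part in these rises was not tested. Over all tested genes 2.51% were called higher and 13.5% lower.

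**Figure D4:**
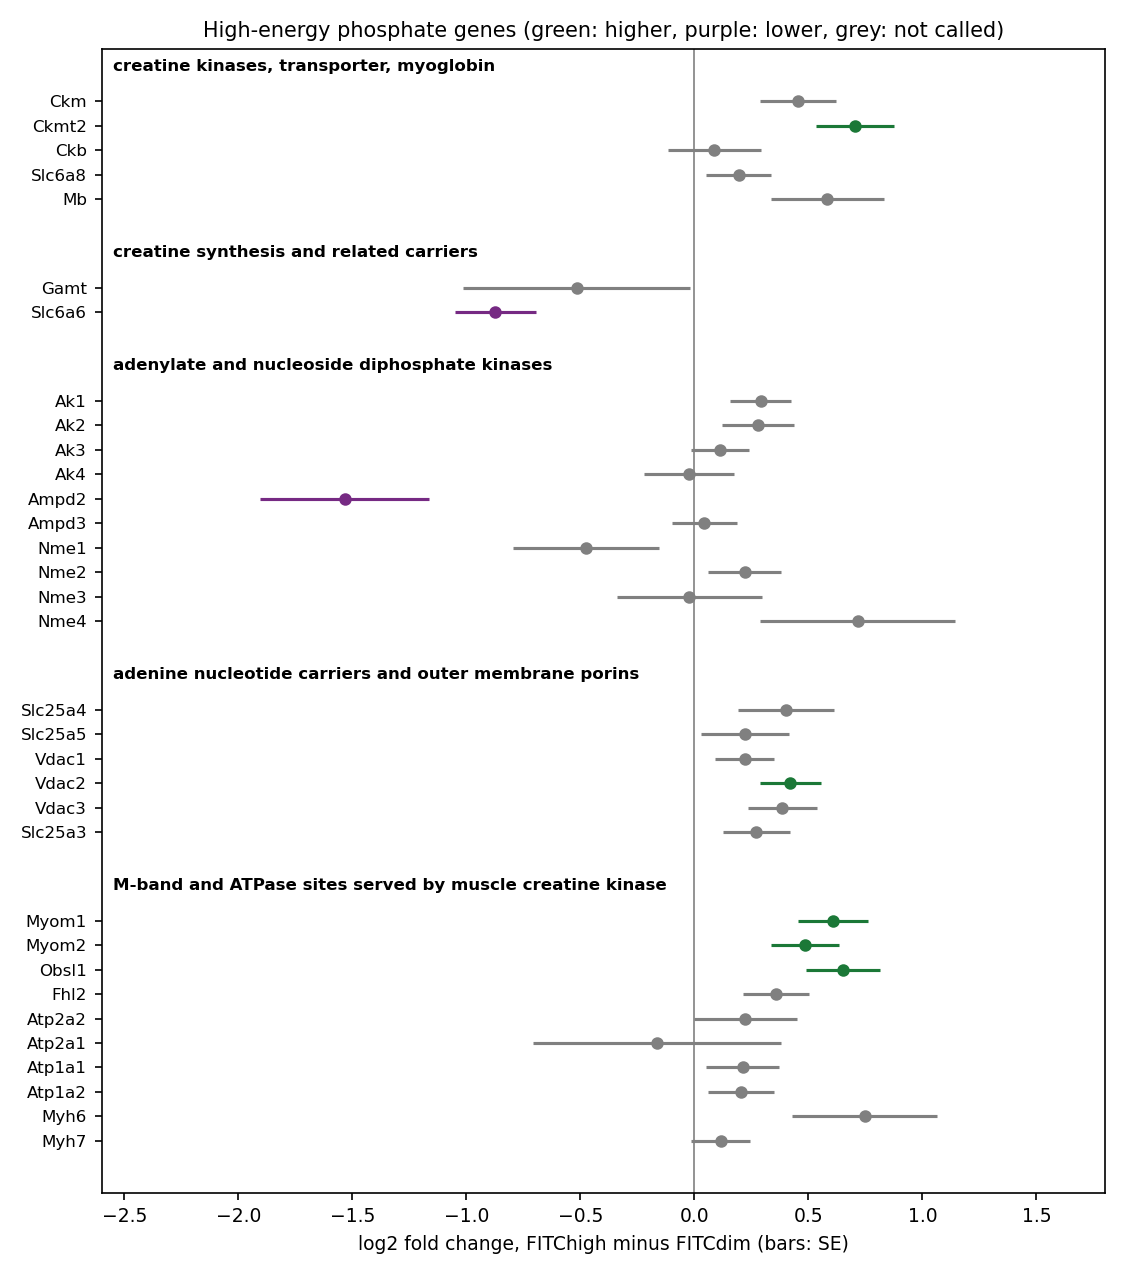
Log2 fold change (FITChigh minus FITCdim) with its SE for the 5 genes and for the tested genes of 4 lists, leaving out Gatm and Slc25a31, which were at 0 in a whole group. Green genes were called higher, purple lower and grey not called; the 3 called M-band genes lie between 0.49 and 0.65.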

How the data were processed

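The 6 libraries were poly(A) RNA libraries made with a strand-specific kit and sequenced as paired reads of 75 bases, per the labels' protocols. The authors used STAR 2.5, edgeR and build mm10, per the submitters' processing notes. For the counting program, annotation and strand setting: not given in the sources used here. The values that the authors deposited are a signal, namely read counts adjusted to a common library size. Of 23410 lines, 6 were garbled (among them Myom3) and left out. The reads behind each value were worked back from the negative binomial adjustment (dispersion 0.0203), and 100% came out whole within 0.1 reads. One read was worth 0.607 to 1.54 adjusted counts. Recovered reads served for depth, CPM levels, intervals, floors and 2 alternatives (voom and a ratio of reads).

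Genes reaching 1 adjusted count in 3 or more libraries were tested as log2(value + 1) by limma 3.58.1 in R 4.3.3 (trend, no block, two-sided), with Benjamini-Hochberg adjustment. Fold changes are on that scale. Counting intervals are exact at 95% and cover counting error only. The test was checked on simulated data, where it found only 19.4% of the genes given a 1.5-fold difference. Recovery was 83.6% at 2-fold and 97% at 4-fold, and the rate of false calls was 2.21%. A gene that did not pass may therefore still differ by about 1.5-fold. Gene lengths, overlaps and promoters were read with Python 3.11.15. RefSeq promoters matched 4 of the 5 genes. Replicates are numbered in accession order. Each p-value reflects only how these libraries vary.

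The 5 genes and the lists were chosen with earlier results of these data known, and some list genes are not reported here. Named genes are the 5 genes, in each list the gene with the highest mean and up to 3 called genes with the largest change, and the 3 nearest patterns among named genes with a mean at or above the median. Tnni3, Slc25a31, Gamt, Ckmt1, Slc6a7 and Atp2a2 were named after their values were seen. Alternatives changed the pseudocount, filter, scaling, variance model, block and libraries, and 4 were added after seeing the data (voom on recovered reads, marker scaling, ratio of reads, ratio after quantile normalization).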

Additional observations from a re-analysis of the deposited data

How the results depend on the processing

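No gene of the 5 was called lower under any of 17 alternatives. The number called higher was 1, and became 0 with quantile normalization, without the trend and with marker scaling, 2 with a stricter filter (adding Mb), and 3 with robust empirical Bayes and with voom on recovered reads (adding Ckm and Mb). Leaving out 1 library gave 0 to 2. Ckmt2 was called in 13 of 17 alternatives, Ckm and Mb in 4 each, and Ckb and Slc6a8 in none.

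Signs turned for Ckm with quantile normalization (-0.0211) and marker scaling (-0.1), for Slc6a8 with a common total (-0.0103) and marker scaling (-0.362), and for Ckb with a common total (-0.114), marker scaling (-0.46), and in fits that dropped FITChigh replicate 1 (-0.0373) or FITCdim replicate 1 (-0.0129), among leave-one-out values of -0.0373 to 0.23. The cause was not tested.

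Over all genes, calls higher numbered 324, and 41 with a common total, 69 without the trend and 6 with marker scaling. Leaving out 1 library gave 67 to 337, where FITChigh replicates 1 and 2 left 67 and 184 when dropped and FITCdim replicates 1 and 3 left 85 and 215. Calls lower numbered 1748, and 1163 with quantile normalization, 4948 with marker scaling and 1156 to 1667 with 1 library left out, the lowest without FITCdim replicate 1. Of all calls, 23.5% were higher with quantile normalization and 0.121% with marker scaling.

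Library titles share a tag across the groups for replicates 2 and 3, while the titles of replicate 1 carry no tag. Deviations correlated at 0.125 and 0.175 for the tagged pairs of replicates 2 and 3, and at 0.0711 for the untagged replicates 1. Every other pairing across the groups was negative (-0.122 to -0.00807). Deviations from a group mean cancel out within the group, so positive values for the same replicates make the other pairings negative on average. The negative values are therefore no separate evidence on pairing. The labels do not say what a tag marks, so the main fit used no block. A replicate block, with the untagged replicates 1 as a block of their own, called 3 of the 5 genes higher. It added Ckm (adjusted p = 0.00155 by limma) and Mb (0.00294), and it called 1064 of all genes higher. For the Ckb/Ckm ratio, the log2 difference was negative under 11 of 12 alternatives and turned to 0.219 after quantile normalization. It lay between -0.305 and -0.474 with 1 library left out.

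Of the 5 genes Ckb had the fewest reads, 45 to 92 a library. Values per gene length depend on the transcript model. With 3 libraries a group the exact test cannot go below 0.1.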

Other observations

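Of 17 regulators of muscle energy genes that passed the filter in both groups, 1 was higher and 1 lower, with a median log2 fold change of 0.07, beside 2.51% higher and 13.5% lower of all genes tested. Esrra, a nuclear receptor that drives oxidative genes, rose to 445 ± 48.5 adjusted counts against 319 ± 11.7 in FITCdim (SD, n = 3 per group; adjusted p = 0.0227 by limma). Epas1, a hypoxia-inducible factor also known from endothelium and the highest of the list, was lower, at 772 ± 130 in FITChigh against 1096 ± 118 in FITCdim (adjusted p = 0.023 by limma). Of 7 AMP-activated protein kinase subunits, Prkaa1 was lower (log2 fold change -0.64, adjusted p = 0.0443 by limma) and the most abundant, Prkaa2, was not called (0.20).

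Of 9 tested globin and heme synthesis genes, 1 fell and none rose, with a median of 0.24, beside 13.5% lower and 2.51% higher of all genes tested. Cytoglobin (Cygb), a globin known from fibroblasts, had 10.52, 11.8 and 6.09 adjusted counts in the FITChigh replicates and 57.8, 55.7 and 54.8 in the FITCdim replicates (log2 fold change -2.49, adjusted p = 1.8e-05 by limma). Fibroblast markers were lower in FITChigh in the same libraries, and their part was not tested. Alas1, the first enzyme of heme synthesis and the highest of the list, was 686 ± 125 against 535 ± 28.1 without passing the test (SD, n = 3 each).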
